A study of Mus musculus with 6 samples.

Results

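The 8 genes described here encode monocyte-recruiting chemokines and receptors that respond to them: the ligands Ccl2, Ccl7, Ccl8, Ccl12, Ccl3 and Ccl4 and the receptors Ccr1 and Ccr2. They were taken by gene symbol, with no measured value used in the choice, and all 8 were present among the 31053 genes of the deposited single-cell RNA-seq (scRNA-seq) tables of mouse skin. Dorsal skin was compared between 3 groups of 2 libraries, each library holding unsorted cells pooled from several mice, to ask what imiquimod does to the skin and what SHP099 does to imiquimod-treated skin. All mice were female C57BL/6 aged 8 to 10 weeks, and the labels name no engineered allele. Sham mice are labelled as untreated, although the same psoriasis-model tag stands on all 6 libraries. IMQ mice received 62.5 mg of a 5% cream of imiquimod (IMQ), a TLR7 agonist that causes psoriasis-like inflammation, on shaved back skin on each of 4 days, and were killed 1 day after the last application. IMQ+SHP099 mice received the same cream and, in addition, 10 mg/kg of SHP099, which inhibits the phosphatase SHP2 allosterically, into the stomach every day for 4 days.

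CCR2 is the receptor by which classical monocytes leave the bone marrow and enter inflamed tissue, and CCL2, CCL7, CCL8 and CCL12 are CC chemokines of 1 family, most of which signal through it. CCL3 and CCL4 are made by activated leukocytes, and CCL3 acts through CCR1, a receptor of monocytes and neutrophils. In the skin, stromal cells, resident macrophages and recruited myeloid cells can all make these ligands.

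Ccl2, Ccl7, Ccl12 and Ccl8 lie in 1 cluster on chromosome 11 of the mouse genome (GRCm38, GENCODE vM21), all on the plus strand and within 81.23 kb. Ccl2 spans chr11:82035571-82037453, Ccl7 chr11:82045712-82047525, Ccl12 chr11:82101845-82103400 and Ccl8 chr11:82115185-82116799. Ccl3 (chr11:83647844-83649355, minus strand) and Ccl4 (chr11:83662584-83664683, plus strand) form a second pair within 16.84 kb. Ccr1 (chr9:123962124-123968692, minus strand) and Ccr2 (chr9:124101950-124113557, plus strand) lie within 151.4 kb on chromosome 9. All 8 are protein-coding. Ccl2 is the only one with an overlapping annotated gene, Gm17268, on the opposite strand. Of the 8 genes, 5 had an entry in the RefSeq promoter table (GRCm38.p6): Ccr1, Ccr2, Ccl12, Ccl8 and Ccl3. The promoters of Ccl12 and Ccl8 are shown because the macrophage-like levels of these 2 neighbours are compared below. The capitals mark a TATAAA match, which begins 31 bases upstream of the start in the Ccl12 sequence at chr11:82101595-82101894 and 32 bases upstream in the Ccl8 sequence at chr11:82114935-82115234, both on the plus strand.
Ccl12: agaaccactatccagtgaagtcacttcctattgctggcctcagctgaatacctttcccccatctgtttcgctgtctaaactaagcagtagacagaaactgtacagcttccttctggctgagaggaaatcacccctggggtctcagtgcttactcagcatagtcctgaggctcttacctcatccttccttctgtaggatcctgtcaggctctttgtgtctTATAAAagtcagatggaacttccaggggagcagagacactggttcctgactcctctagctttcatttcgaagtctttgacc
Ccl8: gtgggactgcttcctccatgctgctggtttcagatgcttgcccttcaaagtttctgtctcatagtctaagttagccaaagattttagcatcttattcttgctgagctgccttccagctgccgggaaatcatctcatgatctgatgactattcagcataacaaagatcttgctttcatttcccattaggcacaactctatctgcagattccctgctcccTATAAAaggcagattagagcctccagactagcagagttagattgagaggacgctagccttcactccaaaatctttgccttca
Over both strands of 32851 mouse promoters of the same length, TATAAA was found in 13.6%, and among the 5 promoters in hand only in these 2. The letters TGANTCA (an AP-1 motif) were found in 7.81% of all promoters, TTCNNNGAA (a GAS motif) in 8.30% and a kB motif (GGGA, any base, then TTTCC) in 0.411%. None of the 5 held any of these 3.

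In total 50850 cells passed the filters, 7382 to 10293 per library, and levels below are in CPM, the UMIs (unique molecular identifiers, each counting 1 captured transcript) of a gene as a share of all UMIs summed over the cells of a class in a library, on which 10000 CPM is 1% of the UMIs. Classes were set by fixed lists of marker genes, and "-like" marks myeloid subsets named from such lists. In every class all of its markers were higher than in the other cells, except dendritic-like cells with 11 of 12, and 7.65% of cells were left ungated. As the gates used these same markers, this is no independent check of the class names. Keratinocytes made up 71.5% of Sham replicate 1 and 62.4% of IMQ+SHP099 replicate 1 but 6.00 to 22.1% of the other 4 libraries, so that 1 library of each of these 2 groups stood apart. IMQ+SHP099 replicate 1 was also the deepest, with a median of 18264 UMIs per cell against 5645 to 8854. Libraries shared 12 to 30 cell barcodes per pair. Genes of 1 class were also read in others: the keratin level outside keratinocytes was 0.575 to 4.34% of its level over all cells. The level of fibroblast genes (collagens and Dcn) was 13.3 to 91.2% of its level over all cells in mural cells and 0.473 to 1.85% in endothelial cells. The part of free RNA, or of the cells' own expression, in these values was not tested.

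The ligands fell into 3 patterns of source. Most Ccl2 and Ccl7 UMIs came from fibroblasts, Ccl8 and Ccl12 were both read in macrophage-like cells, with Ccl8 also in fibroblasts, and Ccl3 and Ccl4 came from myeloid and, in part, cytotoxic lymphoid cells. Fibroblasts held on average 76.9% of a library's Ccl2 UMIs (range 68.3 to 87.7%) and 85.4% of its Ccl7 UMIs (75.0 to 94.4%). By level, mast/basophil-like cells of IMQ skin were higher, at a mean of 1493 (Ccl2) and 2306 CPM (Ccl7) against 613 and 544 in fibroblasts. They numbered only 42 and 24 cells in the IMQ libraries. Myeloid cells held on average 61.6% of the Ccl4 UMIs (46.8 to 72.7%). Macrophage-like cells held 47.2 to 88.2% of the Ccl12 UMIs although they numbered only 30 to 345 cells per library. Of the Ccl8 UMIs they held 44.6 and 72.5% in Sham, where fibroblasts held 36.2 and 21.5%, but only 0.270 to 4.97% in the other 4 libraries, where fibroblasts held 76.6 to 95.5%.

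**Figure D1:**
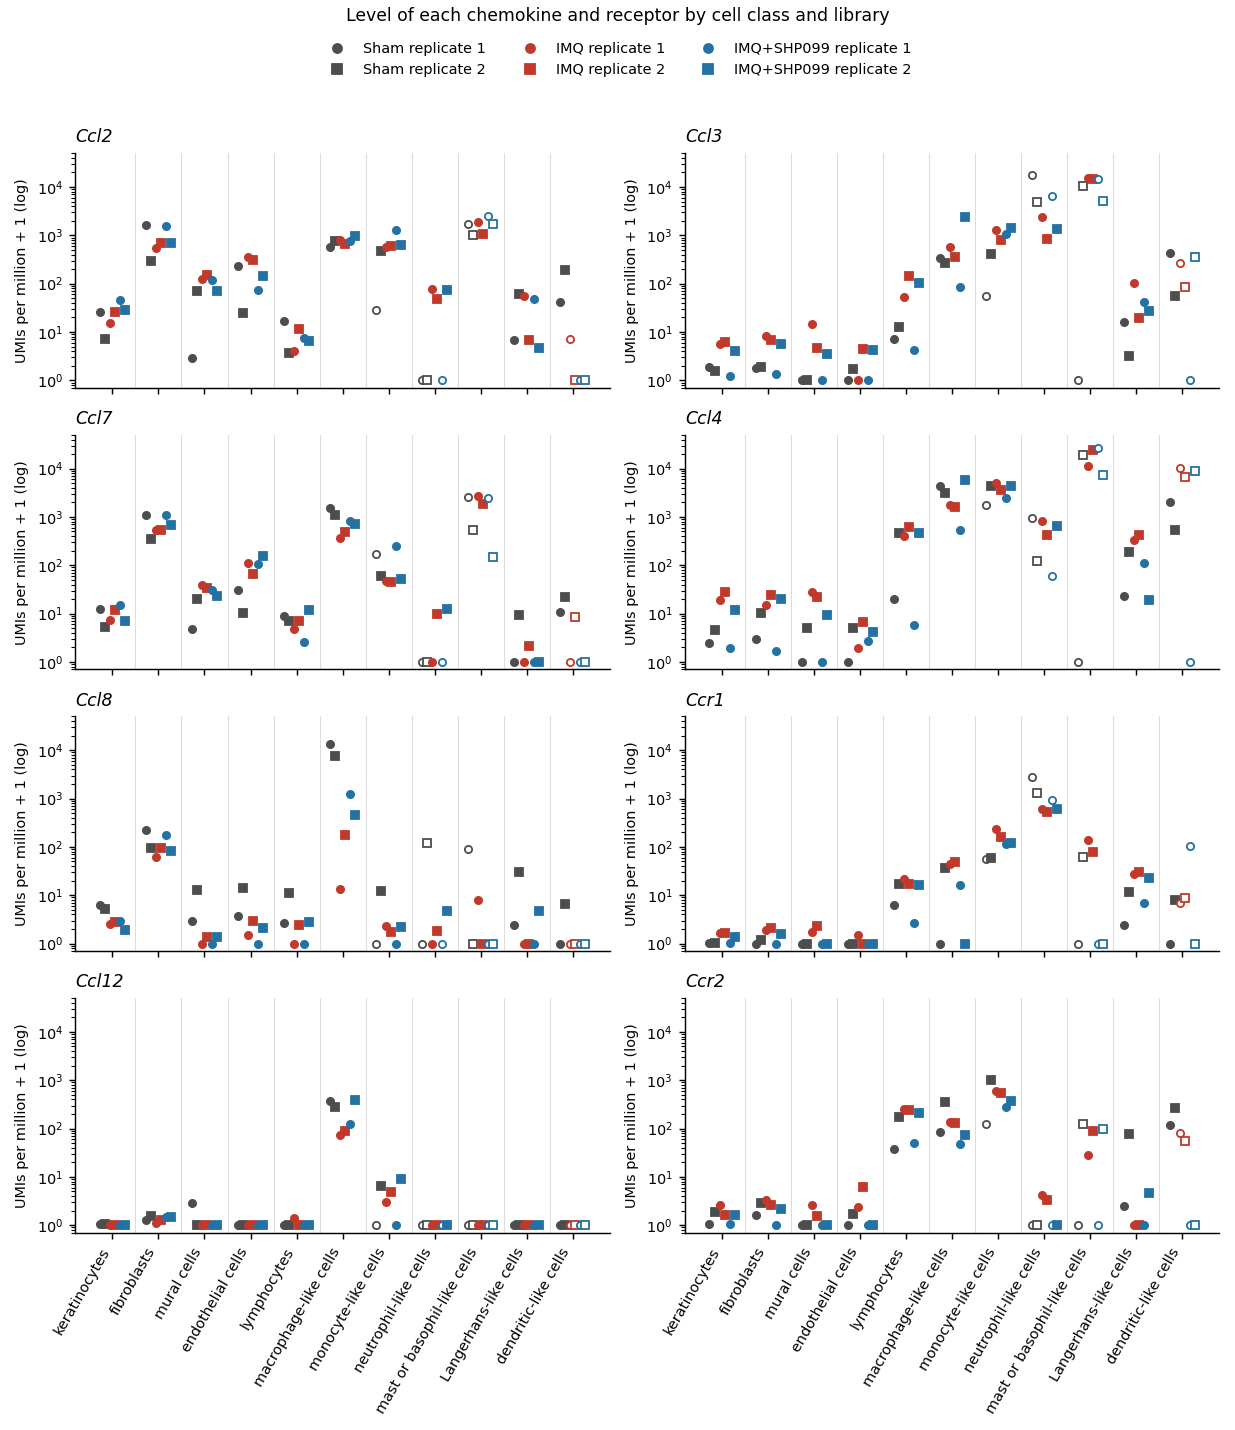
Level of each gene (CPM + 1, log axis) in each cell class, with 1 symbol per library (grey Sham, red IMQ, blue IMQ+SHP099, circle replicate 1, square replicate 2, open where the library had fewer than 20 cells of the class). Ccl12 is near its floor outside macrophage-like cells, while Ccl2 and Ccl7 are high in fibroblasts, macrophage-like cells and the few mast/basophil-like cells.

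**Figure D2:**
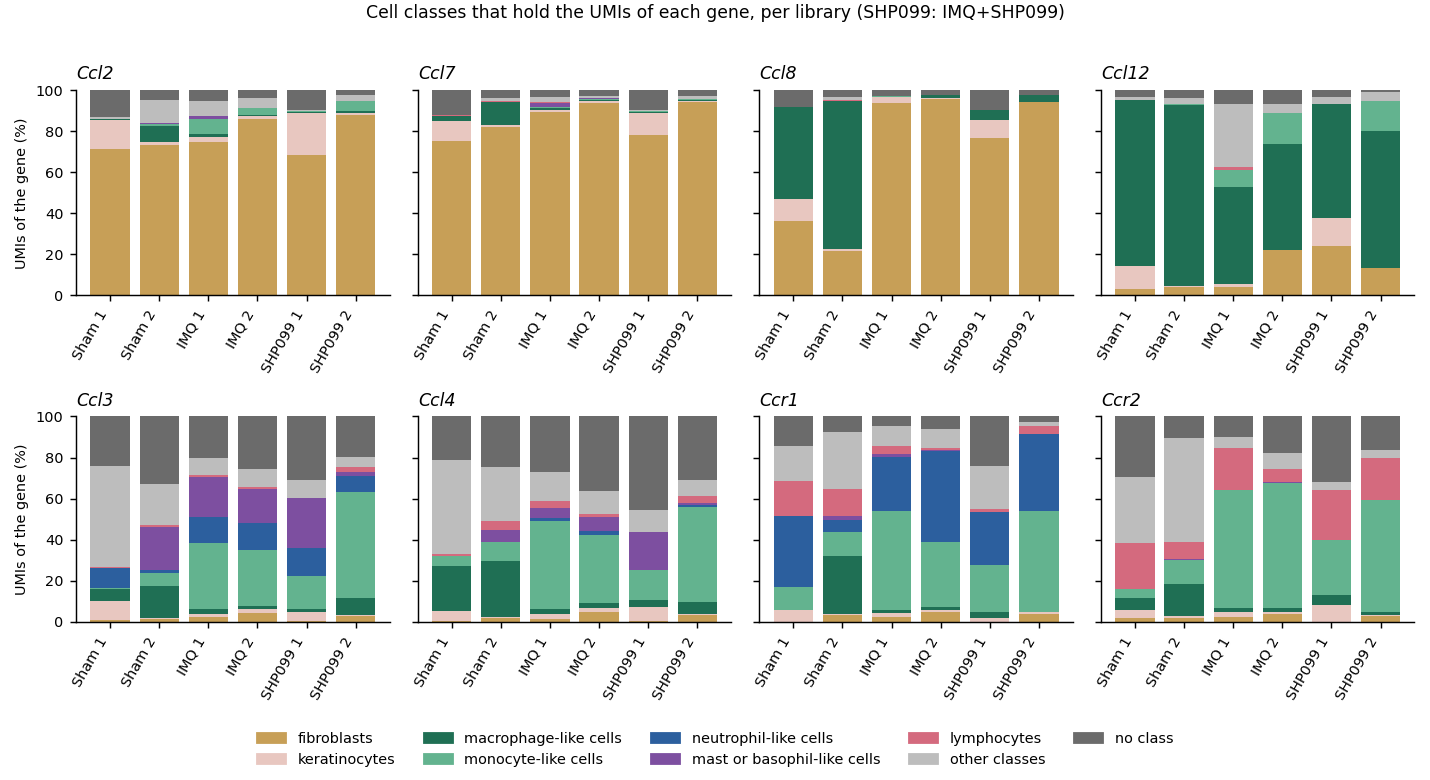
Share of each gene's UMIs in a library (%, stacked to 100) held by each cell class, 1 bar per library, with IMQ+SHP099 shortened to SHP099. The macrophage-like share of Ccl8 is 44.6 and 72.5% (Sham) and 0.270 and 1.24% (IMQ), where fibroblasts hold 93.5 and 95.5%.

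Across 9 class sums in which IMQ could be set against Sham, 54 gene and class pairs passed the count filter, and 2 of them passed the test (edgeR quasi-likelihood, Benjamini-Hochberg adjusted p under 0.05 over all genes of the class): Ccl8 fell in macrophage-like cells and Ccl4 rose in keratinocytes. At an unadjusted p under 0.05 there were 24 pairs, against 14.9% of all gene and class pairs of the same sums, and DESeq2 called 12, against 4.84%. These sums are nested, as all cells hold every class and myeloid cells hold their subsets. A change of 1 gene can therefore count in more than 1 pair. The background of such calls differed widely between classes. In keratinocytes 12.3% of all tested genes passed, against 1 of the 7 genes tested there. In macrophage-like cells 0.494% of genes passed, against 1 of 8. None of the 8 genes passed in fibroblasts (8 tested, background 0.474%), mural cells (4 tested, 1.11%), endothelial cells (2 tested, 0.211%), lymphocytes (5 tested, 0.0116%) or Langerhans-like cells (4 tested, 0.729%). In the sums of myeloid cells and of all cells no gene of any kind passed (background 0.0% in both, with 1223 and 1266 genes at an unadjusted p under 0.05), so an absence of calls there says little of these genes. In the macrophage-like cells the median log2 fold change of the 8 genes was -1.02 against -0.03 over all genes, and in the whole myeloid sum it was 0.92 against -0.04.

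Ccl8, a ligand first known as monocyte chemoattractant protein-2, fell in the macrophage-like cells of IMQ skin. Its level there was 13507 and 7493 CPM (Sham), 12.6 and 178 (IMQ) and 1234 and 455 (IMQ+SHP099). These 3 groups did not overlap, with Sham highest and IMQ lowest. The log2 fold change of IMQ over Sham was -6.90 ± 0.98 (SE, edgeR, adjusted p = 0.0061), a 120-fold lower level. The call was lost when unsupervised clusters replaced the marker gates (-6.32, adjusted p = 0.0825). Over all alternatives the adjusted p ran from 6.68e-33 (with no filter on low counts) to 0.0825.

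Both the share of positive cells and the number of transcripts per positive cell were lower in IMQ skin. Ccl8 was found in 52.4 and 71.6% of macrophage-like cells (Sham), 6.56 and 12.5% (IMQ) and, in IMQ+SHP099, in 9 and 4 of 30 cells. Lymphocytes, which should lack the gene, had it in 0 to 4.47% of cells at median depths of 1240 to 3811 UMIs, against 2696 to 6970 UMIs in macrophage-like cells. The IMQ macrophage-like cells were the deeper ones, so depth ran opposite to the difference. Thinned to 1500 UMIs per cell, which left out 2 to 59 shallower cells per library, the shares were 56.2 and 69.9%, 3.85 and 10.0%, and 22.2 and 7.14%. A positive cell held on average 82.3 and 42.9 Ccl8 UMIs in Sham but at most 10.6 in IMQ. The exact permutation test of 2 against 2 libraries cannot go below p = 0.333, the value that the shares gave.

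Macrophage-like cells numbered 42 and 345 (Sham), 61 and 56 (IMQ) and 30 in each IMQ+SHP099 library. Other macrophage markers did not follow Ccl8 to the same extent. C1qa, a complement gene of macrophages, stood at 4348 and 4335 CPM (Sham) and 4488 and 4739 (IMQ). Mrc1 (522 and 1790 against 626 and 626) and Csf1r (187 and 576 against 351 and 271) had log2 fold changes of -0.90 and -0.35, neither past the test. All 3, like Cd163, are among the markers that set the gate. Cd163, a receptor of resident macrophages, was 112 and 353 (Sham) and 109 and 28.8 (IMQ) (-1.82 ± 0.63, adjusted p = 0.286). Of the markers of recruited monocytes, Chil3 was 0 in both Sham libraries and 237 and 43.2 (IMQ), and Itgam was 440 and 261 against 1013 and 967. Ly6c2 was at most 17.7 in every library. Chil3, Itgam and Ly6c2 are among the markers of the monocyte gate, so their levels in macrophage-like cells depend on the gating. Of the list of monocyte entry and differentiation genes, 9 were tested in this class and none passed. The part of such a shift within the class in the Ccl8 difference was not tested.

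Ccl12 and Ccl7 were also lower in the macrophage-like cells of IMQ than of Sham skin, by less than Ccl8, and neither passed the test. Ccl12, a mouse ligand of CCR2, was at 373 and 281 CPM (Sham), 71.4 and 88.7 (IMQ) and 123 and 393 (IMQ+SHP099). Its log2 fold change of IMQ over Sham was -2.06 ± 0.51 (adjusted p = 0.118, and 0.000206 to 0.743 over the alternatives). Ccl7 was at 1551 and 1120 (Sham), 370 and 484 (IMQ) and 817 and 719 (IMQ+SHP099). It differed between IMQ and Sham by -1.71 ± 0.39 on the log2 scale (adjusted p = 0.0932, and 0.00133 to 0.862 over the alternatives). For both genes Sham and IMQ did not overlap. Without the 2 keratinocyte-rich libraries, an alternative chosen after seeing the data that leaves 1 library each of Sham and IMQ+SHP099, assumed to vary like the 2 of IMQ, Ccl12 gave -1.71 (adjusted p = 0.000206) and Ccl7 gave -1.29 (adjusted p = 0.00133). Ccl2, the main monocyte attractant, showed no such difference in the same cells: 574 and 758 (Sham), 805 and 655 (IMQ), and 771 and 971 (IMQ+SHP099). Its log2 fold change was 0.09 ± 0.36, with a 95% interval from -0.69 to 0.88, taken like the others below from the degrees of freedom of the edgeR test.

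Ccl12 was read in few classes. Libraries held only 29 to 450 Ccl12 UMIs in all, and 0 were read in endothelial, Langerhans-like, neutrophil-like, dendritic-like and mast/basophil-like cells. In the 452 endothelial cells of Sham replicate 2 this allows a share of cells with a Ccl12 UMI of up to 0.664%, and in the 24 Langerhans-like cells of IMQ+SHP099 replicate 2 one of up to 12.5%, both for counting error only. Lymphocytes gave 1 UMI, in IMQ replicate 1, and monocyte-like cells reached at most 8.20 CPM. Ccl8 by contrast was also found in 22.9 to 40.2% of fibroblasts, and monocyte-like cells had at most 11.1 CPM.

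In fibroblasts the ligands Ccl2, Ccl7 and Ccl8 varied widely between the 2 libraries of Sham and between those of IMQ+SHP099. Ccl2 was at 1615 and 292 CPM (Sham), 540 and 686 (IMQ) and 1575 and 679 (IMQ+SHP099). Ccl7 was at 1112 and 343 (Sham), 543 and 544 (IMQ) and 1091 and 671 (IMQ+SHP099). Ccl8 was at 224 and 92.6 (Sham), 61.6 and 92.4 (IMQ) and 179 and 82.2 (IMQ+SHP099). For all 3 genes the 2 highest values came from the 2 keratinocyte-rich libraries. The log2 fold changes of IMQ over Sham were -0.72 ± 0.84 for Ccl2 (adjusted p = 0.884), -0.47 ± 0.64 for Ccl7 (0.909) and -1.06 ± 0.60 for Ccl8 (0.608). Without Sham replicate 1 they turned to 1.37, 0.97 and 0.03, with adjusted p of 0.279 for Ccl2 and 0.268 for Ccl7. Without both keratinocyte-rich libraries Ccl2 and Ccl7 were higher in IMQ by the same 1.37 and 0.97 with adjusted p of 0.0146 and 0.0198, on 1 residual degree of freedom and with the lone Sham library assumed to vary like the IMQ pair. Over all alternatives the adjusted p ran from 0.0146 to 1 for Ccl2 and from 0.0198 to 1 for Ccl7. The direction of the fibroblast ligands under IMQ therefore rested on 1 Sham library. In that library fibroblasts also stood out in Csf1, a macrophage growth factor (711 against 165 to 245 CPM in the others), and in Cx3cr1 (133 against 1.89 to 12.2), both named after their values were seen.

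**Figure D3:**
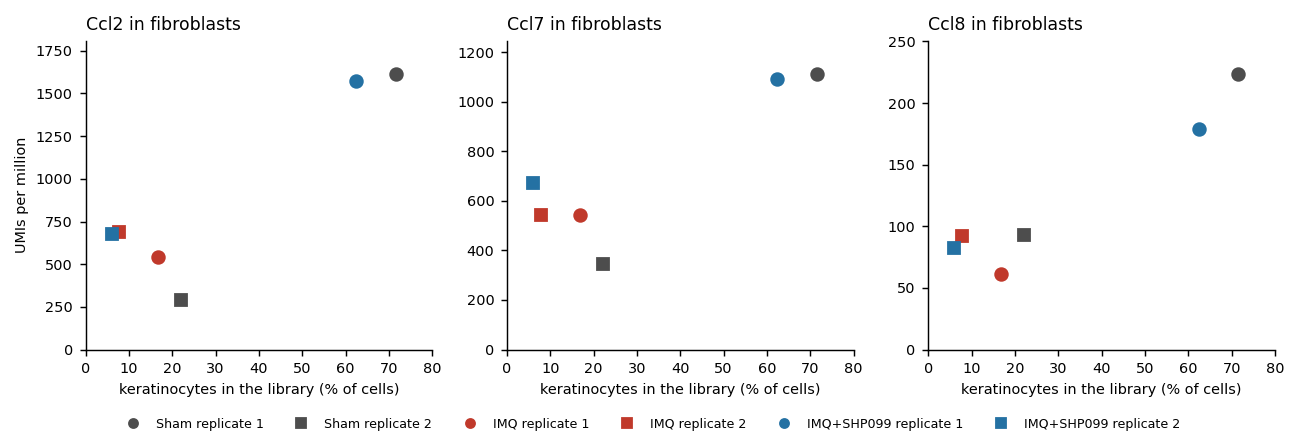
Level of Ccl2, Ccl7 and Ccl8 in fibroblasts (CPM, linear axis from 0) against the percent of the library's cells that were keratinocytes, 1 symbol per library. The 2 libraries at 62.4 and 71.5% keratinocytes have the highest level of each gene, for Ccl2 1575 and 1615 against 292 to 686 in the other 4.

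The share of fibroblasts with a Ccl2 UMI varied less than the level, from 34.2 to 48.6%, against 0.930 to 2.81% of lymphocytes (median depth 5157 to 9229 and 1240 to 3811 UMIs). The mean share was 4.44 points higher in IMQ than in Sham, and -0.258 points after thinning to 1500 UMIs (73 to 157 cells left out per library), a difference within the spread between libraries. Ccl2 and Ccl7 were read in the same fibroblasts. Of the cells with Ccl7, 56.9 to 69.2% also had Ccl2, against 14.2 to 22.8% of the cells without Ccl7, in all 6 libraries. Deep cells are more likely to show both genes, and this share was not thinned. The output was also uneven between cells, as the 10% of Ccl2-positive fibroblasts with most UMIs held 44.9 to 61.0% of the Ccl2 UMIs of the class.

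Blood vessel cells held minor parts of the same ligands. Endothelial Ccl2 was at 233 and 24.1 CPM (Sham), 349 and 306 (IMQ) and 74.6 and 141 (IMQ+SHP099). It was 1.51 ± 0.84 higher in IMQ than in Sham on the log2 scale (adjusted p = 0.413), and both IMQ libraries were the highest of the 6. Ccl7 in endothelial cells was at 30.1 and 9.29 CPM (Sham), 112 and 64.4 (IMQ) and 103 and 154 (IMQ+SHP099). Both IMQ libraries lay above both Sham libraries, by 2.76 ± 0.57 on the log2 scale (adjusted p = 0.118, 0.00544 without Sham replicate 1, and 2.53e-10 to 0.621 over all alternatives). In mural cells, which wrap small vessels, Ccl7 was at 3.87 and 19.3 (Sham) and 37.2 and 32.4 (IMQ) (1.43 ± 0.36, adjusted p = 0.0933). Mural Ccl2 was at 1.93 and 68.3 (Sham) and 125 and 152 (IMQ) (1.91 ± 0.62, adjusted p = 0.166). Mural Ccl4 was at 0 and 3.94 (Sham), 27.0 and 21.4 (IMQ) and 0 and 8.26 (IMQ+SHP099) (IMQ over Sham 3.18 ± 0.68, adjusted p = 0.0623). Mural Ccl3 was 0 in both Sham libraries and 13.4 and 3.59 (IMQ). The part of RNA from other classes in the mural levels was not tested.

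Among the gated classes, Ccl3 and Ccl4, the inflammatory chemokines MIP-1 alpha and MIP-1 beta, were highest in small myeloid classes. A mostly ungated cluster, flagged below, read Ccl4 at 12770 to 20610 CPM. In mast/basophil-like cells, of which each library had only 5 to 42, Ccl3 was at 0 and 10613 CPM (Sham), 15389 and 14760 (IMQ) and 14420 and 5118 (IMQ+SHP099). Ccl4 reached 26893 CPM there. Only 6 such cells stood behind the Sham library at 0. In the myeloid cells as a whole Ccl3 was at 362 and 228 (Sham), 1370 and 878 (IMQ) and 345 and 1365 (IMQ+SHP099). Sham and IMQ did not overlap (2.06 ± 0.72 on the log2 scale), but the adjusted p was 0.385, and the 2 IMQ+SHP099 libraries lay at the opposite ends. The share of myeloid cells with Ccl3 was 14.9 and 22.6% (Sham), 57.6 and 49.6% (IMQ), and 24.1 and 63.6% (IMQ+SHP099), against 0.151 to 1.43% of fibroblasts (median depth 4716 to 6877 and 5157 to 9229 UMIs). After thinning, which left out 15 to 118 myeloid cells per library, these shares were 9.28 and 12.8%, 42.2 and 34.4%, and 15.6 and 50.8%. Myeloid Ccl4 was at 1380 and 1642 (Sham), 3567 and 2762 (IMQ) and 628 and 3865 (IMQ+SHP099) (IMQ over Sham 1.24 ± 0.78, adjusted p = 0.633).

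In the Langerhans-like cells, the resident myeloid cells of the epidermis, 4 of the genes passed the count filter. For 3 of them the unadjusted p was under 0.05, with none past the test. Ccr2, left out by the filter, was at 1.48 and 76.9 CPM (Sham) and 0 in both IMQ libraries. Ccr1 was at 1.48 and 10.7 CPM (Sham), 25.9 and 29.8 (IMQ) and 6.03 and 22.1 (IMQ+SHP099) (IMQ over Sham 2.36 ± 0.73, adjusted p = 0.207). Ccl3 was at 14.8 and 2.14 (Sham), 103 and 18.3 (IMQ) and 41.3 and 25.8 (IMQ+SHP099) (2.74 ± 0.89, adjusted p = 0.232). Ccl4 was at 22.2 and 188 (Sham), 331 and 425 (IMQ) and 113 and 18.4 (IMQ+SHP099) (1.98 ± 0.78, adjusted p = 0.343). For these 3 genes both IMQ libraries lay above both Sham libraries, while Ccl2 differed by 0.14 ± 1.04 (adjusted p = 0.981). In lymphocytes Ccl3 was at 6.04 and 12.0 (Sham), 52.0 and 141 (IMQ) and 3.26 and 100 (IMQ+SHP099) (3.53 ± 1.09, adjusted p = 0.248), and the differences of Ccl4 (1.30 ± 1.46), Ccr1 (1.02 ± 0.71) and Ccl2 (-0.52 ± 0.97) had adjusted p of 0.542 to 0.846.

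The makeup of the myeloid cells also differed between the libraries. Monocyte-like cells were 4.48 and 6.28% of myeloid cells (Sham), 49.8 and 44.4% (IMQ) and 12.3 and 60.7% (IMQ+SHP099). Neutrophil-like cells numbered 3 and 6 (Sham), 133 and 281 (IMQ) and 9 and 83 (IMQ+SHP099). Macrophage-like cells were 15.7 and 36.1%, 7.50 and 6.09%, and 15.4 and 6.20%. In sums over mixed classes, fewer cells of a type and less RNA of a gene per cell cannot be told apart. Within monocyte-like cells, which numbered 12 and 60 (Sham) and 405 and 408 (IMQ), Ccl4 was at 1799 and 4319 CPM (Sham) and 4949 and 3670 (IMQ), so those groups overlapped.

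Ccl4 rose in keratinocytes from a very low level. It was at 1.49 and 3.49 CPM (Sham), 18.2 and 26.7 (IMQ) and 0.948 and 10.8 (IMQ+SHP099) (IMQ over Sham 3.54 ± 0.86, edgeR adjusted p = 0.0350, an 11.6-fold difference). Against the background of 12.3% of keratinocyte genes this call is 1 of 7. The differences of Ccr1 (4.73 ± 1.37) and Ccl3 (2.90 ± 0.92) in the same class had adjusted p of 0.0597 and 0.0776. It was lost without Sham replicate 1 (3.23, adjusted p = 0.126), without Sham replicate 2 (3.94, 0.0883), with library totals in place of TMM (3.19, 0.0697) and under a stricter gate (3.25, 0.0771), and was kept by the other alternatives (6.26e-19 to 0.126 over all). Ccl4 was found in 0.521 and 3.795% of keratinocytes (Sham) and 5.21 and 5.97% (IMQ), at median depths of 9889 and 15140 against 34961 and 31641 UMIs. Thinned to 1500 UMIs these shares were 0.117 and 0.450% (Sham) and 1.05 and 1.02% (IMQ). The groups still did not overlap, with a mean difference of 0.749 points at shares of at most 1.05%. The exact permutation test of 2 against 2 libraries gave p = 0.333, its smallest possible value. The median positive keratinocyte held 1 UMI in every library, and the 10% of positive cells with most UMIs held 87.8 and 93.4% of the class's Ccl4 UMIs in IMQ, with up to 538 UMIs in 1 cell. Genes of myeloid cells appeared in the same sums, as Chil3 was 0 in both Sham libraries and 6.50 and 7.83 (IMQ). Fibroblast Ccl4, 1.98 and 9.26 (Sham) and 13.9 and 23.6 (IMQ), lay in the same range. The part of RNA from myeloid cells in the keratinocyte call was not tested.

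Ccr1, the receptor for CCL3 on monocytes and neutrophils, was higher in the myeloid cells of IMQ skin. Its level was 15.4 and 19.4 CPM (Sham), 194 and 203 (IMQ) and 29.6 and 146 (IMQ+SHP099). Sham and IMQ were tight and far apart, by 3.69 ± 0.76 on the log2 scale, a 12.9-fold difference, with an adjusted p of 0.191 in edgeR. It passed with DESeq2 (5.39e-05), with only the 2 groups in the fit (0.0119) and without both keratinocyte-rich libraries (0.00123, with the lone Sham library assumed to vary like the IMQ pair), and over all alternatives the adjusted p ran from 1.96e-07 to 0.648. Ccr1 was found in 4.48 and 9.31% of myeloid cells (Sham), 52.2 and 53.3% (IMQ) and 14.9 and 35.7% (IMQ+SHP099), against at most 0.626% of fibroblasts. After thinning the shares were 2.11 and 3.70%, 25.3 and 26.5%, and 7.22 and 20.4%, so that the difference of 45.8 points became 23.0 points.

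Ccr1 was highest in neutrophil-like cells, at 2798 and 1328 CPM (Sham), where these were 3 and 6 cells, and at 594 and 515 (IMQ), where they were 133 and 281 cells. In monocyte-like cells it was at 55.4 and 58.1 (Sham) and 230 and 163 (IMQ). Macrophage-like cells had 0 and 35.4 (Sham) and 44.1 and 48.0 (IMQ). Neutrophil-like and monocyte-like cells together held most of the Ccr1 UMIs in the IMQ libraries, the former 26.3 and 44.7% and the latter 48.3 and 31.4%. The myeloid difference thus moved with the share of both subsets, and the parts of level and makeup were not separated by a test.

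Ccr2, the receptor that marks classical monocytes, was read mainly in monocyte-like, dendritic-like and macrophage-like cells and in lymphocytes. A mostly ungated cluster, flagged below, also read it. In monocyte-like cells it was at 125 and 1015 CPM (Sham), 608 and 540 (IMQ) and 278 and 364 (IMQ+SHP099). It was found in 50.0 and 88.3%, 81.7 and 79.2%, and 54.2 and 72.1% of these cells, against 0 to 1.00% of fibroblasts (median depth 4690 to 7689 and 5157 to 9229 UMIs). The 2 lowest libraries were the 2 keratinocyte-rich ones, with only 12 and 24 monocyte-like cells. Dendritic-like cells had 115 and 262 CPM (Sham), 78.7 and 53.8 (IMQ) and 0 in both IMQ+SHP099 libraries, with 23 and 269 cells in the Sham libraries but 3 to 12 in the other 4. In all myeloid cells Ccr2 was at 57.6 and 356 (Sham), 323 and 284 (IMQ) and 29.6 and 263 (IMQ+SHP099) (IMQ over Sham 0.81 ± 1.06, adjusted p = 0.843), and those groups overlapped. Neutrophil-like cells had at most 3.20. Lymphocyte Ccr2 was at 37.1 and 175 (Sham), 248 and 238 (IMQ) and 48.8 and 210 (IMQ+SHP099) (1.42 ± 0.73, adjusted p = 0.416). In the IMQ libraries monocyte-like cells held 57.1 and 60.8% of all Ccr2 UMIs, against 4.66 and 11.7% (Sham).

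IMQ+SHP099 was set against IMQ in 10 class sums, nested as before and monocyte-like cells included, with 60 gene and class pairs tested. No pair passed in edgeR, 9 had an unadjusted p under 0.05 (against 2.12% of all gene and class pairs), and DESeq2 called 0 (against 0.0264%). No gene of any kind passed in any of these sums either (background 0.0% in each), so the count of 0 is not particular to these genes. In macrophage-like cells Ccl8, Ccl12 and Ccl7, lower in IMQ than in Sham, were higher in IMQ+SHP099 than in IMQ. Both comparisons share the IMQ libraries. Ccl4 was also lower in IMQ there, at a mean of 1699 CPM against 3792 (Sham), without overlap and without passing the test. Its IMQ+SHP099 libraries, with a mean of 3157 and an SD of 3690, overlapped those of IMQ. Ccl8 was higher with SHP099 by 3.27 ± 0.85 on the log2 scale, Ccl12 by 1.83 ± 0.52 and Ccl7 by 0.95 ± 0.38, with an adjusted p of 0.999 in edgeR for each. For these 3 genes both IMQ+SHP099 libraries lay above both IMQ libraries and, for Ccl8 and Ccl7, below both Sham libraries. The receptors went the other way in this class, also without overlap. Ccr1 was at 15.4 and 0 CPM (IMQ+SHP099), on 2 and 0 UMIs, against 44.1 and 48.0 (IMQ). Ccr2 was at 46.3 and 73.8 CPM (IMQ+SHP099) against 134.5 and 129.5 (IMQ). Without IMQ replicate 2, Ccl8 gave 6.09 (adjusted p = 0.00102), and without both keratinocyte-rich libraries 2.45 (0.0263), each time with a lone library in a group assumed to vary like the other groups, with a range of 8.07e-08 to 1 over all alternatives. Each IMQ+SHP099 library had 30 macrophage-like cells and these held 160 and 74 Ccl8 UMIs, against 6 and 74 (IMQ).

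In monocyte-like cells the IMQ+SHP099 over IMQ log2 fold changes were -0.70 ± 0.35 for Ccr1 (95% interval -1.46 to 0.07), -0.80 ± 0.63 for Ccr2 (-2.18 to 0.59), 0.69 ± 0.66 for Ccl2 (-0.75 to 2.14), 1.201 ± 0.598 for Ccl7 (-0.12 to 2.52), 0.31 ± 0.56 for Ccl3 (-0.93 to 1.55) and -0.31 ± 0.44 for Ccl4 (-1.29 to 0.67). All had an adjusted p of 1. Myeloid Ccr1 was lower in IMQ+SHP099 by -1.15 ± 0.68 (adjusted p = 0.999). Endothelial Ccl2 was -1.58 ± 0.82 and Ccl7 0.56 ± 0.45 in IMQ+SHP099 against IMQ (95% intervals -3.44 to 0.28 and -0.45 to 1.57). In fibroblasts Ccl2, Ccl7 and Ccl8 were 0.99 ± 0.84, 0.79 ± 0.64 and 0.87 ± 0.60 higher than in IMQ, with intervals that span 0 in each case. Keratinocyte Ccl4 was -2.06 ± 0.83 (adjusted p = 1 in edgeR), with 0.948 and 10.8 CPM against 18.2 and 26.7.

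**Figure D4:**
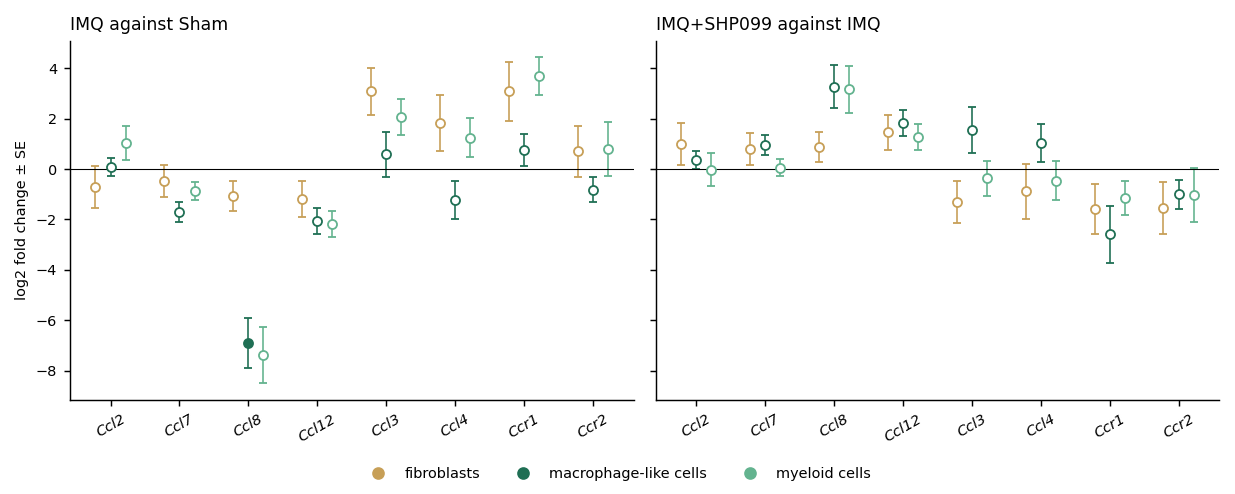
Log2 fold changes (± SE, edgeR) of the 8 genes in fibroblasts, macrophage-like cells and all myeloid cells, for IMQ over Sham and IMQ+SHP099 over IMQ; filled symbols mark an adjusted p under 0.05. Only Ccl8 in macrophage-like cells, at -6.90, is filled.

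Whether a gene's response to IMQ differed between classes was tested directly in 2 pairs of classes. Between myeloid cells and fibroblasts, Ccl8 responded by -6.90 ± 0.90 more on the log2 scale in myeloid cells (adjusted p = 0.0697 in edgeR), and none of the 8 genes passed, against 0.0659% of all genes. Macrophage-like cells were 15.7 and 36.1% of the myeloid cells in Sham but 7.50 and 6.09% in IMQ. In this sum, fewer such cells and less Ccl8 per cell cannot be told apart. The Ccl8 difference passed with library totals (0.0316), with clusters (0.00226) and after thinning (0.00024), and the range over all alternatives was 2.65e-05 to 0.299. Between keratinocytes and fibroblasts, Ccl2 differed by 1.06 ± 0.29 (adjusted p = 0.0669) and Ccl4 by 1.59 ± 0.52 (0.102), and none passed, against 7.83% of all genes. For IMQ+SHP099 against IMQ no gene passed in either pair (background 0.0% in both), with Ccl8 at 2.49 ± 0.85 between myeloid cells and fibroblasts (adjusted p = 1 in edgeR).

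Other genes of these pathways were read from 3 lists. Of the 12 related chemokines and receptors, 6 were tested in macrophage-like cells and 1 fell under IMQ, Ccl5, a chemokine of T cells and other leukocytes, from 179 and 144 CPM (Sham) to 16.8 and 26.4 (IMQ) (-2.90 ± 0.44, adjusted p = 0.0082). Ccl5 also fell in Langerhans-like cells (-6.33, adjusted p = 0.0221), and it rose in keratinocytes (3.50, 0.0030) and mural cells (3.19, 0.0438). In keratinocytes 2 of 11 rose, Ccl5 and Ccr3, and 1 fell, the scavenging receptor Ackr2 (-2.72), where 12.3% of all genes passed. Of the 14 inducers and mRNA-decay factors, all tested in keratinocytes, 2 rose there, against the same background: Il1a, an alarmin (1.44 and 0.711 against 10.7 and 13.6, 3.64, adjusted p = 0.0036) and Tnf (4.60 and 6.00 against 17.7 and 14.1, 1.89, 0.0039). In Langerhans-like cells 1 of 10 rose, Il1b, an inflammasome cytokine (160 and 64.1 against 1950 and 1342, 3.85, 0.0454). Of the 14 genes of monocyte entry and differentiation, 13 were tested in keratinocytes and 4 passed, 2 in each direction, against the same 12.3%. Il34, a ligand of CSF1R that sustains Langerhans cells, fell from 68.7 and 41.1 to 7.02 and 9.47 (-2.54, 0.0069), C1qa fell (-3.64), and Chil3 rose from 0 in both Sham libraries. No listed gene passed in the other classes or between IMQ+SHP099 and IMQ.

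Over 65 sums of a class in a library, the genes whose log level followed each of the 8 most closely were given by Pearson's r, as a description with no test, since sums of a library share its depth and the myeloid sums contain their subsets. Ccl2 was most like Ccl7 (r = 0.851), and Ccl7 most like Ccl2 and then Pla2g15 (0.807). Ccl8 was most like Cd209f (0.837), a lectin of resident macrophages, and Ccl12 most like Ms4a7 (0.935), itself a gate marker, and Slc13a3 (0.919). Ccl3 was most like Lilrb4a (0.953), and Ccl4 most like Ccl3 (0.947). Ccr1 was most like Osm (0.911), a cytokine of activated myeloid cells, and Ccr2 most like Ms4a6b (0.933).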

How the data were processed

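Single-cell suspensions of dorsal skin were read with the 10x Genomics 3′ assay, which counts molecules by UMIs. The authors deposited unnormalized counts of UMIs for each gene and barcode from Cell Ranger (3.1.0 in the matrix headers) on GRCm38/mm10, per the submitters' processing notes, and the values depend on reads near the 3′ end of each gene. Levels of different genes are therefore not scaled by length and are compared here only within a gene or as shares. The deposited tables held 55201 barcodes and 53913865 to 188283327 UMIs per library.

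Cells were kept with fewer than 100000 UMIs, fewer than 6500 genes and under 10% mitochondrial UMIs (50850 cells). Each cell was given 1 of 14 classes from 146 marker genes, at a score of at least 0.2 with the next class at no more than 0.6 of it (0.8 for myeloid subsets, and 0.3 in a stricter gate). Gate and unsupervised cluster gave the same name in 98.8% of the 46267 cells named by both. No doublet caller was run. The stricter gate stands in for it.

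UMIs were summed per library and class, with at least 20 cells in each library compared, and fitted over all 3 groups with edgeR 4.0.16 (quasi-likelihood, TMM, filterByExpr), adjusted by Benjamini-Hochberg over all genes of a class, at a threshold of 0.05. The smallest library of a group thus decides which classes were tested, and Schwann cells gave no gene of the 8 past the filter. DESeq2 1.42.0, limma 3.58.1 (used by edgeR), R 4.3.3, Python 3.11.15 and scanpy 1.11.5 were used. Shares of cells have exact 95% intervals (Clopper-Pearson) that, like the floor of 3 counts behind a value of 0, reflect counting error alone, and were repeated on cells thinned to 1500 UMIs, leaving out 2863 shallower cells. The edgeR step was tested on simulated sums.

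Libraries are pools of mice, so p-values measure the spread between 2 pools per group. The 8 genes, the marker and gene lists and the tests were chosen with earlier results of these data known. By rule the 8 genes were described in each class and listed genes named where they passed. Tested pairs that bear on no result are given as counts, and some items are not reported here. Library numbers are given in the labels. Alternatives were another scaling, library totals, no filter, a replicate block, DESeq2, only the groups compared, 5% mitochondrial UMIs, the stricter gate, clusters, thinning and leaving out each library.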

Additional observations from a re-analysis of the deposited data

Results flagged for a closer look

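One signal lay outside the classes compared above. A cluster of 288 cells, 246 of them ungated, could not be named from the marker lists and was led by Gzma, Ccl5, Klra4, Klra8, Gzmb, Klre1, Ncr1 and Ifng, which are genes of cytotoxic lymphocytes. It held 0.0466 to 1.03% of the cells of a library but a larger share of 2 of the ligands. Of all Ccl4 UMIs, it held 15.3 and 19.1% (Sham), and more in each of the other 4: 19.3 and 32.1% (IMQ) and 37.8 and 33.2% (IMQ+SHP099). Of all Ccl3 UMIs, it held 9.84 and 24.8% (Sham), and only IMQ+SHP099 replicate 1, at 25.5%, exceeded both. The level of Ccl4 within the cluster was 20610 and 14760 CPM in Sham, 17350 and 18140 (IMQ) and 13460 and 12770 (IMQ+SHP099), so Sham and IMQ overlapped there while the number of these cells was 4 and 37 (Sham), 60 and 100 (IMQ) and 11 and 76 (IMQ+SHP099). Groups of 2 libraries are too small to test for an outlying sample.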

How the results depend on the processing

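Of the 2 IMQ against Sham pairs, Ccl8 in macrophage-like cells was lost only with clusters. The count of pairs was 1 with library totals, 30 with no filter, 12 with DESeq2, 8 with only the groups compared, 5 with clusters and 6 after thinning, where 2.06, 4.91, 4.84, 2.10, 2.43 and 2.31% of all gene and class pairs passed (2.07% in the fit reported). It was 2 to 9 when 1 library was left out (9 without Sham replicate 1 or either IMQ+SHP099 library, where 3.39, 1.77 and 1.78% passed), and a lone library is then assumed to vary like the other groups. For IMQ+SHP099 against IMQ it was 7 with no filter (0.335% of all pairs) and 0 to 1 when 1 library was left out (1 without IMQ replicate 2). Without both keratinocyte-rich libraries, chosen after seeing the data, the counts were 37 and 6 (19.8 and 0.5% of all pairs), on 1 residual degree of freedom. Libraries share only a number, with 2 same-numbered pairs per comparison. Their deviations correlated at 0.36 to 0.56 in all cells, 0.26 to 0.34 in myeloid cells, 0.13 to 0.38 in lymphocytes and -0.07 to 0.20 elsewhere. With the number as a replicate block the counts were 8 and 0 (3.66 and 0.000942% of all pairs). The 8 were Ccl8 and Ccl12 in macrophage-like cells, Ccl4, Ccl3 and Ccr1 in keratinocytes, Ccl3 in lymphocytes and in Langerhans-like cells, and Ccl8 in myeloid cells. The fibroblast directions of Ccl2, Ccl7 and Ccl8 reversed without both keratinocyte-rich libraries to 1.37, 0.97 and 0.03469, and when 1 library was left out ran from -1.54 to 1.37, -1.17 to 0.97 and -1.68 to 0.0333, reversing without Sham replicate 1.

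The difference of the Ccl8 response between myeloid cells and fibroblasts was -7.03 with library totals, -6.91 with no filter, -6.07 with clusters and -6.42 after thinning, each now past the threshold, and -8.13 to -5.90 when 1 library was left out (these alternatives were also chosen after seeing the data). Shares of cells with a UMI, IMQ minus Sham, ran over left-out libraries from -62.1 to -42.9 points for macrophage-like Ccl8, 0.6996 to 8.19 for fibroblast Ccl2, 43.4 to 48.3 for myeloid Ccr1 and -3.87 to 31.6 for myeloid Ccr2. Thinning gave -0.258 for Ccl2 and 23.0 for Ccr1. Of the other single-gene results, 422 kept their direction and side of the threshold, 60 passed newly and 5 were lost. The cause of these changes was not tested. Langerhans-like cells have no cluster version. Each group had 2 pools, and each IMQ+SHP099 library 30 macrophage-like cells.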
